A study of Mus musculus with 90 samples.

Results

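Single 8-cell (8c) mouse embryos from Plag1 knockout mothers were compared with 8c embryos from WT mothers. Of the 90 sequenced oocytes and embryos in the series, 30 were 8c libraries, 15 of each genotype, and they were chosen by their stage and genotype labels alone. The animals were of the CD-1 stock. Females of both genotypes were superovulated and mated with WT studs, and the zygotes were cultured in KSOM medium until they were picked at 71 to 73 h. An embryo of a knockout mother, called matPlag1KO here, therefore developed from an egg without Plag1 product but carried an intact paternal Plag1 copy. Nothing else was added to either group. The embryos were picked on several occasions from donor females that the labels do not name, so that family and genotype cannot be told apart and p-values measure the spread between single embryos.

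PLAG1 is a zinc finger transcription factor that is abundant in growing fetal tissues and scarce in most adult ones. In the mouse the 8-cell stage follows the activation of the embryonic genome. Its blastomeres compact, polarize and begin to express the keratins and transcription factors of the future trophectoderm, the outer layer that later pumps fluid into the blastocyst cavity. RNAs stored in the egg and genes of the 2-cell (2c) burst have largely been cleared by then.

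All 15 WT libraries and 11 of the 15 matPlag1KO libraries had enough counts to be used. The 4 left out held between 83 and 1721 gene counts each. They were wells E6 and F8 in both library pools. Spike-in RNA, which was added to every library, was also nearly absent from them (31, 12, 1 and 0 counts). Every used 8c library had at least 6645 spike-in counts, so the low gene counts of these wells do not describe their embryos. The used WT embryos had 264386 to 696870 counts on genes (median 564009) and 8680 to 11226 genes with a count, and the used matPlag1KO embryos had 214053 to 664771 counts (median 393914) and 8405 to 11432 genes. All 8 blastomere markers (among them Pou5f1, Cdh1, Tead4 and Nr5a2) were detected, with a summed level of 5046 to 8113 CPM (gene counts scaled to an equal total in every library) in WT and 4273 to 8350 CPM in matPlag1KO. Of 8 cumulus cell markers 5 were at 0 in every embryo, and the sum of the list reached 6.33 CPM at most in WT and 6.78 CPM in matPlag1KO. Of 8 markers of the 2c burst 7 were at 0.

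Plag1 itself checks the maternal genotype in oocytes rather than at 8c. It had 326 counts over 16 of 16 WT oocytes and 4 counts in 3 of 14 matPlag1KO oocytes. At 2c it had 1 count in 1 of 11 WT embryos and 91 counts in 9 of 11 matPlag1KO embryos. At 8c it had 10 counts in 5 of 15 WT embryos and 6 counts in 4 of 11 matPlag1KO embryos, few in either genotype. CPM ranged from 0.0 to 12.2 (median 0.0) in WT and from 0.0 to 6.50 (median 0.0) in matPlag1KO 8c embryos, and the log2 fold change was -0.07 ± 0.88 (SE). Its relatives Plagl1 (log2 fold change 0.24) and Plagl2 (-0.09) did not pass the test either. None of the 40 tested genes within 10 Mb of Plag1 on chromosome 4 was called.

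Before the genes, the layout of the plates has to be given, because it bears on every result. The libraries were made in 2 pools (plates A and B). At 8c, WT embryos sat in well columns 1 to 4 and matPlag1KO embryos in columns 5 to 8 of both plates, so that well and genotype cannot be told apart. Libraries in the same well of the 2 plates resembled each other. Deviations from the group mean within a plate, across 6881 genes with a mean of at least 10 CPM, correlated at 0.124 to 0.50 (median 0.276) in all 12 pairs of libraries that shared a well. In the 74 pairs of the same genotype that did not share a well, the correlation ran from -0.285 to 0.142 (median -0.04). Each of the 24 libraries with a partner was closest to the library of its own well. In 5 of the 12 pairs an embryo with Xist RNA and no Y-linked RNA was joined to one with the opposite pattern, so these 5 pairs were different embryos. The other pairs are not told apart by these RNAs and rest on their labels. For this reason the count of genes called at 8c and the calls of single genes are also given from a fit in which the libraries of a well were summed, which leaves 8 WT and 6 matPlag1KO wells. In a further fit, limma-voom with the libraries of a well treated as correlated, 34 genes were called. Both fits were added after the data were seen, and neither was made for the other stages or for the differences between stages.

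**Figure D1:**
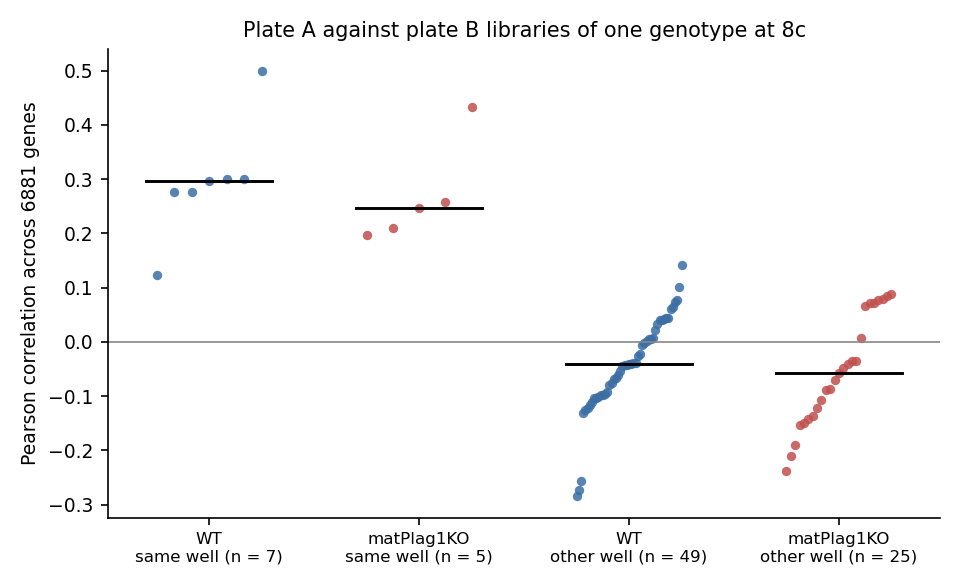
Pearson correlation (vertical axis, no unit) between a plate A and a plate B library of the same genotype, for pairs in the same well and pairs in other wells; each point is a pair, black lines are medians, WT blue and matPlag1KO red. Same-well pairs lie between 0.124 and 0.50, and the other pairs reach 0.142 at most.

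Detection of Xist also differed between the groups, though the counts of embryos were not tested. Xist, the RNA that coats the inactive X chromosome, had at least 4 counts in 8 of 15 WT embryos and in 3 of 11 matPlag1KO embryos. With the same bound for Y-linked RNA, 1 matPlag1KO embryo had both and 1 had neither, so these RNAs do not give their sex. X-linked genes made up 14.5% of the genes called lower in matPlag1KO (12 of 83) and 3.45% of all genes tested. With Xist detection as a term in the fit, also added after the data were seen, 1 of these 12 remained called. Rbm3, Ogt, Emd, Gla and Cdk16 are among those that did not, and they were chosen for mention after their values were seen.

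Across 16511 genes, 192 were called higher in matPlag1KO (1.16%) and 83 lower (0.503%), 275 in all (1.67%), by the quasi-likelihood test of edgeR with Benjamini-Hochberg adjustment at 0.05. The genes lower in matPlag1KO were the more abundant ones. Their median level in WT was 40.7 CPM, whereas the genes called higher had a median of 7.21 CPM in matPlag1KO. The median change was 2.35 on the log2 scale among the higher and 1.83 among the lower genes. No gene of the 16511 (0.0%) separated the genotypes completely: for each, the range of the WT embryos overlapped that of the matPlag1KO embryos. With median-ratio scaling in place of TMM the split was 223 higher and 52 lower, and the median of the genes with at least 10 CPM was 0.01 in place of -0.08 log2. When the libraries of a well were summed, 74 of 13182 genes were called (0.561%), 45 higher and 29 lower. Without matPlag1KO replicate 11 there were 169 calls. Of the 275 genes, 49 were called in the summed fit too, and 252 of the 275 had the same direction there. With the Xist term 156 of the 275 remained, 122 higher and 34 lower, and 41 were called in all 3 fits, 32 higher and 9 lower. Of the 69 called genes that the naming rule chose, 23 were called with wells summed and 12 with wells correlated. Those called in both were Perp and Akr1b8, which were lower, and Smarca2, Lsm1, Prkca, Pilra, H2-T23, A930015D03Rik and 1700065O20Rik, which were higher.

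Directions within each plate are given as a description, because the genes were called on the embryos of both plates together. Of the 192 genes called higher 184 were higher in both plates, and of the 83 called lower 82 were lower in both, though the plates share the wells described above. Plate A alone called 4 genes and plate B alone 45, and no gene was called in both.

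Of 28 tested trophectoderm and primitive endoderm factors 3 were called (10.7%, beside 1.67% of all genes), and these 3 were lower in matPlag1KO. Krt8 and Krt18 encode the keratin partners that form the filaments of trophectoderm cells and are neighbours on chromosome 15 (mm9 chr15:101827142-101834773 and chr15:101858647-101862457). Krt18 ran from 11.1 to 120.3 CPM (median 44.6) in WT and from 2.40 to 26.8 CPM (median 10.4) in matPlag1KO, a log2 fold change of -1.91 ± 0.45 (SE, adjusted p = 0.0119 in edgeR). Most WT embryos lay above the highest matPlag1KO embryo, and the adjusted p was 0.025 with wells summed and 0.0584 with wells correlated. Krt8 ran from 19.4 to 314.3 CPM (median 53.4) in WT and from 0.0 to 56.3 CPM (median 13) in matPlag1KO, a log2 fold change of -1.91 ± 0.49 (adjusted p = 0.0244). The adjusted p of Krt8 was 0.0883 with wells summed, 0.0444 with wells correlated and 0.0559 with the Xist term. Cdx2, the transcription factor that specifies trophectoderm, had 2.38 to 186.5 CPM (median 19.8) in WT and 0.0 to 66.7 CPM (median 3.25) in matPlag1KO (log2 fold change -2.0 ± 0.57, adjusted p = 0.0455). Its adjusted p was 0.354 with wells summed, 0.0268 with wells correlated and 0.0599 with the Xist term. The call of Cdx2 was kept in 12 of the 26 fits that left out an embryo. Over the whole list the median log2 fold change was -0.12 (0.13 in limma-voom), beside 0.00 for all genes tested, and 8 of the 13 members with at least 10 CPM were lower, a share of 61.5% beside 56.8% of all 6881 such genes.

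Perp, Ly6e, Aqp3 and Sdc4 encode proteins of the cell surface and were called lower singly. Perp, a desmosome protein and target of p53, had 2.77 to 140.7 CPM (median 40.7) in WT and 0.0 to 10.7 CPM (median 3.20) in matPlag1KO. Its log2 fold change was -3.53 ± 0.57 (adjusted p = 3.61e-05), and it was called with wells summed (0.0335) and in each of the 26 fits that left out an embryo. Ly6e, a GPI-anchored surface protein, ran from 11.1 to 1260 CPM (median 222.1) in WT and from 0.0 to 118.1 CPM (median 12.9) in matPlag1KO (-3.06 ± 0.62, adjusted p = 0.00286, but 0.221 with wells summed). Aqp3, a water and glycerol channel of the embryo, had a median of 143.3 CPM in WT and 55.6 CPM in matPlag1KO (-1.63 ± 0.41, adjusted p = 0.0215, but 0.177 with wells summed). Sdc4, a syndecan that the cumulus list also holds, was at -1.80 ± 0.50 log2 (adjusted p = 0.0406, but 0.279 with wells summed and 0.0603 with the Xist term). None of the 47 tested compaction, adhesion, polarity and junction genes was called. Their most abundant members were Cldn4, with a median of 427.4 CPM in WT and 228.4 CPM in matPlag1KO, and Gja1, with 481.3 and 334.1 CPM. Of 31 sodium pump, aquaporin and cavity genes Aqp3 alone was called. None of 28 Hippo pathway genes was called, and Tead4, the factor upstream of Cdx2, had medians of 171.9 and 121.7 CPM.

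For some genes the highest values came from 1 well. Actg1, cytoplasmic gamma actin, ran from 73.4 to 2693 CPM (median 178.7) in WT and from 0.0 to 183.1 CPM (median 51.2) in matPlag1KO, with a log2 fold change of -2.73 (adjusted p = 0.0115) that was -2.69 with wells summed (adjusted p = 0.244). The WT libraries of well F3 held the 2 highest values, 2693 and 1544 CPM, and the next embryo had 359.9 CPM. Ubqln1, a shuttle factor of the proteasome, was similar, with 376.4 and 366.2 CPM in well F2 and 84.1 CPM in the next embryo. Over the genes called lower, the 2 highest embryos shared a well for 35 of 83 (42.2%), and over the genes called higher for 60 of 192 (31.2%). The share was 12.7% over the 14910 genes with counts in at least 2 embryos.

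**Figure D2:**
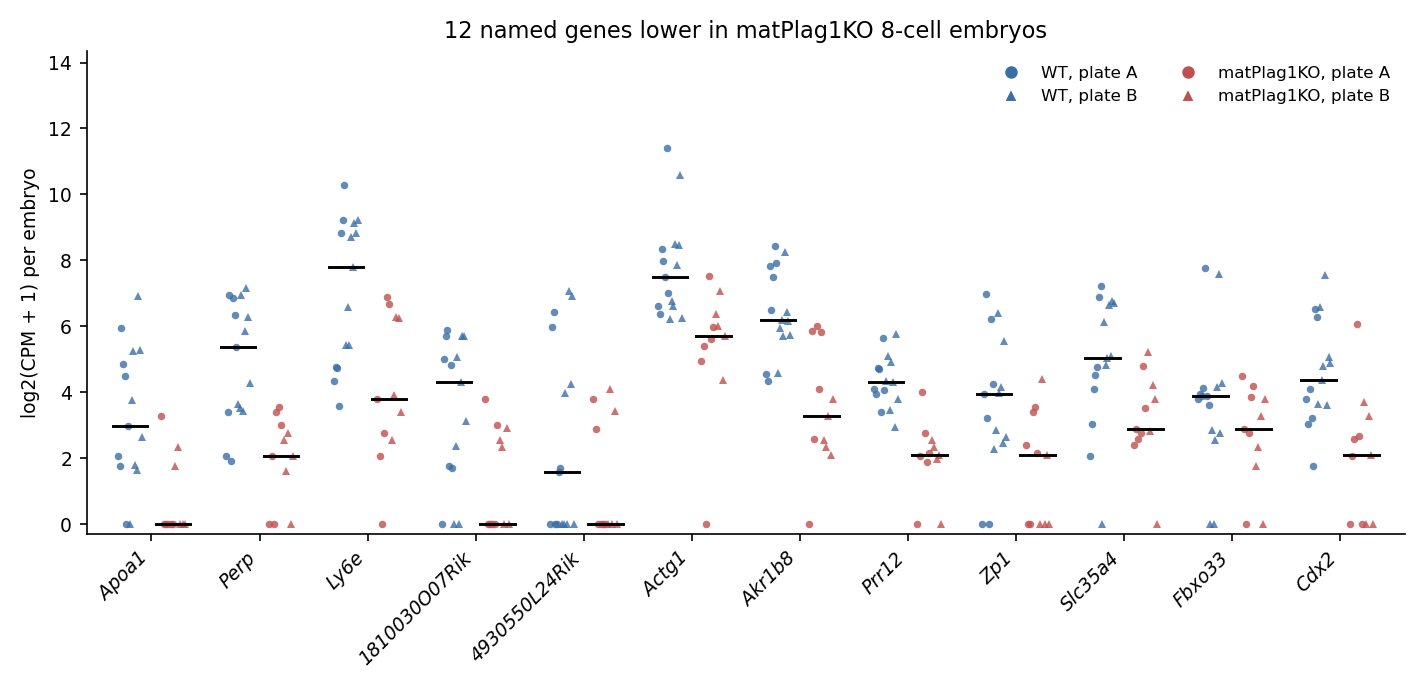
log2(CPM + 1) per embryo (vertical axis) of the 12 named genes with the largest falls in matPlag1KO; circles are plate A, triangles plate B, black lines group medians (WT n = 15, matPlag1KO n = 11). Perp has a median of 40.7 CPM in WT and 3.20 CPM in matPlag1KO, and the ranges of the groups overlap for every gene.

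Hspd1 and Hspe1 encode the chaperonin of the mitochondrial matrix and its lid, and their genes lie head to head on chromosome 1 (mm9 chr1:55134678-55144776 and chr1:55144992-55148161). Hspd1 ran from 31.0 to 307.3 CPM (median 179.6) in WT and from 41.6 to 125.0 CPM (median 78.0) in matPlag1KO (log2 fold change -1.12 ± 0.29, adjusted p = 0.0268, 0.0462 with wells summed). Hspe1 ran from 200.6 to 959.4 CPM (median 421.5) in WT and from 105.7 to 411.7 CPM (median 221.2) in matPlag1KO (-1.05 ± 0.30, adjusted p = 0.0452, 0.0328 with wells summed). The call of Hspe1 was kept in 7 of the 26 fits that left out an embryo. With wells correlated neither was called (0.165 for Hspd1 and 0.187 for Hspe1). They were the 2 called genes among 83 tested heat shock factors and chaperones (2.41%, beside 1.67% of all genes), whose median was -0.03.

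Since the counts come from 5′ ends and the genes start close together, the RefSeq sequence of GRCm38.p6 around the start of Hspe1 is shown (chr1:55087898-55088197, plus strand, from 250 bases before to 50 bases after the start). Starts of Hspd1 on the other strand are annotated at 55087932, within the window, and at 55088243, beyond its end. That of Hspe1 is at 55088148, so the transcripts overlap if Hspd1 starts at 55088243. Capitals mark GAANNTTC, an inverted repeat of the element that heat shock factors bind, which lies 84 bases before the start of Hspe1.
Hspe1: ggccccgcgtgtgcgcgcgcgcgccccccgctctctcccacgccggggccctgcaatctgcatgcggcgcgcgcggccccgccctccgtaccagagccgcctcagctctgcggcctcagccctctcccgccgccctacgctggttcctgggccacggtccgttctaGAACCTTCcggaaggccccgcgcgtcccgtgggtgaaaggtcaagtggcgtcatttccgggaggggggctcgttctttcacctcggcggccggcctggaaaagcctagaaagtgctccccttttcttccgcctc
The element was present on either strand in 7.86% of all promoter windows of this length. It was found for 7 of the 66 genes called lower that matched a window by symbol, for 6 of 133 called higher, and for 902 of 12355 tested genes.

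Metabolic genes gave few single calls, and their shares of lower members are read against the 56.8% of all genes with at least 10 CPM. Of the 55 tested genes of glycolysis, pyruvate use and the TCA cycle 1 was called and the median log2 fold change was -0.38. Of the 38 with at least 10 CPM, 32 were lower (84.2%). The called member was Gapdh, the glyceraldehyde phosphate dehydrogenase of glycolysis, with 0.0 to 40.7 CPM (median 8.41) in WT and 0.0 to 4.06 CPM (median 0.0) in matPlag1KO (-2.95 ± 0.64, adjusted p = 0.00491, 0.0462 with wells summed). Gapdh has many processed copies in the genome, and how reads shared with them were counted is not given. Cholesterol and lipid synthesis had a median of -0.37 with 23 of 29 members (79.3%) lower and no call among 40 tested. Its most abundant member Fdft1, squalene synthase, had medians of 556.6 CPM in WT and 415.7 CPM in matPlag1KO. Lysosome and V-ATPase genes had a median of -0.28, with 32 of 43 (74.4%) lower and 1 call among 52, the lysosomal galactosidase gene Gla, which is X-linked (-1.22 ± 0.35, adjusted p = 0.0452, 0.0861 with the Xist term).

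Redox enzymes gave 2 calls among 56 genes (3.57%, beside 1.67% of all genes), both lower. They were Nfe2l2, the transcription factor that drives antioxidant genes (-1.55 ± 0.44, adjusted p = 0.0477), and Prdx2, a peroxiredoxin (-1.17 ± 0.34, adjusted p = 0.0496). Neither was called with wells summed (0.236 and 0.0806). Akr1b8, an aldo-keto reductase outside the list, had 19.1 to 345.2 CPM (median 71.9) in WT and 0.0 to 62.9 CPM (median 8.77) in matPlag1KO, a log2 fold change of -2.52 (adjusted p = 0.0191) that held with wells summed (0.0462). Shmt2, which feeds mitochondrial one-carbon metabolism, fell by 1.56 (adjusted p = 0.0148, 0.0885 with wells summed). Among 38 amino acid transporters the glutamate carrier Slc1a2 was called lower, from counts in few embryos, and 10 of the 13 abundant members were lower, though the median over the list was -0.22 here and 0.07 in limma-voom.

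Aurka, the kinase of centrosome maturation and spindle assembly, ran from 181.0 to 568.4 CPM (median 300.2) in WT and from 47.5 to 250 CPM (median 110.8) in matPlag1KO. Its log2 fold change was -1.41 ± 0.33 (adjusted p = 0.0119, 0.0118 with wells summed and 0.0912 with wells correlated), and most matPlag1KO embryos lay below the lowest WT embryo. Aurka was the only call among 76 mitosis genes, 45 of 70 abundant members (64.3%, beside 56.8% of all genes) being lower (median over those tested -0.20). E2f4 was the only call among 43 cyclins, CDKs, inhibitors and E2F genes (-1.69 ± 0.48, adjusted p = 0.0481, 0.218 with wells summed). Of 62 DNA replication genes Topbp1, which activates the replication checkpoint, was called and was higher, with 42.1 to 154.7 CPM (median 107.2) in WT and 103.0 to 347.5 CPM (median 210.5) in matPlag1KO (1.08 ± 0.29, adjusted p = 0.0338, 0.033 with wells summed). Its adjusted p was 0.127 with wells correlated and 0.0513 with the Xist term. The call of Topbp1 was kept in 14 of the 26 fits that left out an embryo. The list as a whole was balanced, with 29 of 58 abundant members, Topbp1 being among the 58, lower.

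DNA damage and p53 response genes gave 4 calls among 50, a share of 8.0% beside 1.67% of all genes tested. Perp was lower, as given above. Mdm4, the p53 inhibitor, was higher (0.90 ± 0.26, adjusted p = 0.0454), as were Trp53bp1, which binds double-strand breaks (1.16 ± 0.31, adjusted p = 0.0281), and Xrcc5, a Ku subunit of end joining (1.89 ± 0.49, adjusted p = 0.0235). None of these 3 was called with wells summed (0.217, 0.207 and 0.0872). Apaf1, the scaffold of the apoptosome, had a median of 8.41 CPM in WT and 32.5 CPM in matPlag1KO and was the only call among 28 Bcl2 family and caspase genes (1.68 ± 0.40, adjusted p = 0.0119, 0.0529 with wells summed).

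Among the genes called higher, Smarca2, Lsm1, Prkca and Pilra kept their calls with wells summed and with wells correlated. Sdad1 (0.0642), Tmco3 (0.0905), Tiam1 (0.129), Rasgrp3 (0.0642), Hat1 (0.179), Topbp1 (0.127) and Nanos2 (0.191) were called with wells summed but not with wells correlated, where these are their adjusted p. Smarca2, an ATPase of SWI/SNF chromatin remodelling complexes, had the lowest adjusted p of all named genes. It ran from 0.0 to 13 CPM (median 2.32) in WT and from 0.0 to 50.4 CPM (median 22.4) in matPlag1KO (2.53 ± 0.38, adjusted p = 1.08e-05, 0.0194 with wells summed). Only 1 of the 11 matPlag1KO embryos was at 0, and the others lay above most WT embryos. Lsm1, part of the ring that prepares cytoplasmic mRNA for decapping, ran from 22.3 to 111.4 CPM (median 65.0) in WT and from 76.3 to 240.4 CPM (median 211.5) in matPlag1KO (1.44 ± 0.25, adjusted p = 0.000187, 0.0118 with wells summed). It was the only call among 97 spliceosome and splicing genes, a list it shares by family rather than by role. Sdad1, a factor of large ribosomal subunit assembly, ran from 31.6 to 100.3 CPM (median 57.9) in WT and from 80.6 to 209.1 CPM (median 125.9) in matPlag1KO (1.36 ± 0.34, adjusted p = 0.0162, 0.0198 with wells summed). Prr12, a proline-rich nuclear protein, was lower (-2.45 ± 0.57, adjusted p = 0.0101, 0.0367 with wells summed, 0.0548 with wells correlated), and Tmco3, a membrane protein of the ion exchanger family, was higher (1.71 ± 0.30, adjusted p = 0.000235, 0.0165 with wells summed). Hat1, which acetylates newly made histone H4, was higher too (0.99 ± 0.28, adjusted p = 0.0477, 0.025 with wells summed, 0.0581 with the Xist term). The call of Hat1 was kept in 4 of the 26 fits that left out an embryo.

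Signalling genes called higher included Tiam1, an exchange factor for Rac, with 10.4 to 52.5 CPM (median 25.6) in WT and 36.1 to 285.3 CPM (median 60.4) in matPlag1KO (1.71 ± 0.32, adjusted p = 0.000473, 0.0196 with wells summed). Prkca, protein kinase C alpha, had medians of 4.76 and 26.4 CPM (2.21 ± 0.52, adjusted p = 0.0119, 0.0196 with wells summed). Rasgrp3, an exchange factor for Ras, had medians of 4.90 and 32.2 CPM (2.98 ± 0.62, adjusted p = 0.00287, 0.046 with wells summed). Of 35 FGF pathway genes 2 were called (5.71%, beside 1.67% of all genes), Fgf1 (1.61 ± 0.46, adjusted p = 0.0477) and the feedback inhibitor Spry4 (3.12 ± 0.61, adjusted p = 0.00152). Neither was called with wells summed (0.29 and 0.28). In Spry4 the 2 matPlag1KO libraries of well F5 held 681.3 and 394.7 CPM, the next embryo held 34.5 CPM, and the medians were 12.4 CPM in WT and 24.4 CPM in matPlag1KO.

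Well F5 carried other large values. Cdk20, a kinase of the cyclin-dependent family, had 520.6 and 383.0 CPM in well F5 and 25.8 CPM in the next embryo (log2 fold change 3.88, adjusted p = 1.69e-05, 0.196 with wells summed). Nobox, an oocyte homeobox factor, had 505.3 and 304.1 CPM there, with 75.0 CPM in the next embryo. Fgd4 and Hist1h3g were highest in well F6, where Hist1h3g had 566.1 and 302.1 CPM and no other embryo exceeded 23.4 CPM. Nanos2, an RNA-binding protein of germ cells, had 107.9 and 92.7 CPM in well F7 and 14.6 CPM in the next embryo, though its call was kept with wells summed (0.0445).

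**Figure D3:**
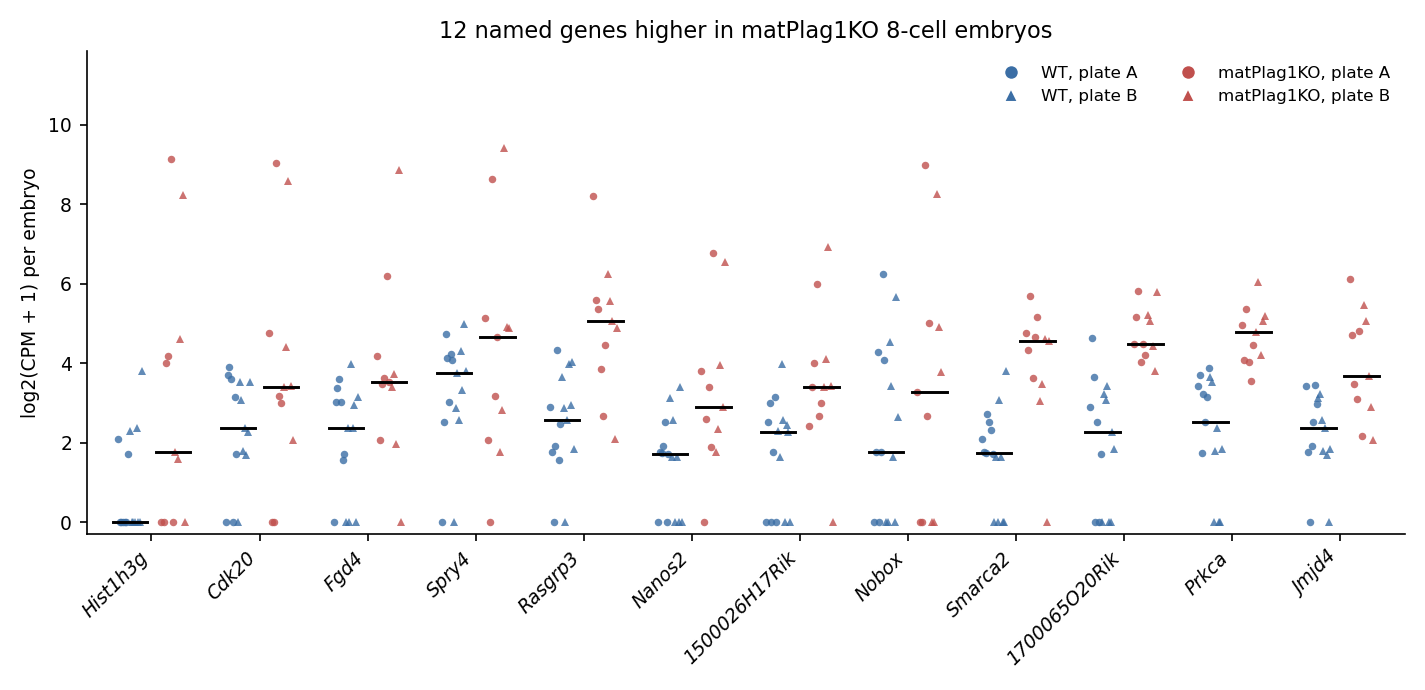
log2(CPM + 1) per embryo (vertical axis) of the 12 named genes with the largest rises in matPlag1KO; circles are plate A, triangles plate B, black lines group medians (WT n = 15, matPlag1KO n = 11). Smarca2 has a median of 2.32 CPM in WT and 22.4 CPM in matPlag1KO, whereas Cdk20, Spry4, Nobox and Hist1h3g each have a circle and a triangle of the same well far above the rest.

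Canonical replication histones gave 6 calls among 54 genes (11.1%, beside 1.67% of all genes), all higher, and their median was 0.33. They were Hist1h3g, Hist1h4a, Hist1h2ac, Hist1h2af, Hist2h2ac and Hist1h4i. None was called with wells summed, where the adjusted p ran from 0.0529 for Hist1h4a to 0.313 for Hist2h2ac. Histone genes of a class are near-identical copies, so that counts of single genes are uncertain, and most of their mRNAs lack the poly(A) tail on which the libraries were primed. With a stricter filter on low counts the list's median was -0.19. The summed level of the list was 98.6 to 3319 CPM (median 357.1) in WT and 226.9 to 3543 CPM (median 801.2) in matPlag1KO, so the groups overlapped almost fully.

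Of 63 tested oocyte and egg genes 3 were called higher and 1 lower (6.35% in all, beside 1.67% of all genes), and none of the 4 was called with wells summed. The median log2 fold change was 0.34 and 19 of the 24 abundant members were above 0, but the summed level of the list was 10289 CPM (median) in WT and 9302 CPM in matPlag1KO. Oog1, an oocyte gene with several copies in the genome, had a median of 51.4 CPM in WT and 87.7 CPM in matPlag1KO (1.35 ± 0.35, adjusted p = 0.0244, 0.0641 with wells summed), after 3089 and 3786 CPM at 2c. Nlrp4e and Nobox were the others called higher (0.342 and 0.47 with wells summed). Zp1, a zona pellucida gene, was lower (-2.36 ± 0.65, adjusted p = 0.0419, 0.246 with wells summed, 0.273 with the Xist term). Klf17, a Krüppel-like factor of early cleavage, had 4.47 to 134.5 CPM (median 29.4) in WT and 38 to 258.4 CPM (median 85.9) in matPlag1KO (1.32 ± 0.36, adjusted p = 0.0326, 0.285 with wells summed), after 354.6 and 305.9 CPM at 2c. Intu, an effector of planar polarity and ciliogenesis, had 2.38 to 45.1 CPM (median 12.6) in WT and 24.1 to 107.7 CPM (median 50.4) in matPlag1KO (1.61 ± 0.34, adjusted p = 0.00322, 0.0574 with wells summed), after 1809 and 1602 CPM at 2c. Among 34 genes of the Zscan4 cluster and the 2c burst Tdpoz5 and Gm4850 were called higher (5.88%, beside 1.67% of all genes), both at medians under 4 CPM and both at an adjusted p of 0.236 with wells summed. The median of that list was 0.01. The 6 Obox genes gave no call.

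Klf17 was also the only call among 30 pluripotency transcription factors, and it ran against the rest of the list. Of the 24 abundant members 20 were lower (83.3%), with a list median of -0.23. The imprinted genes gave Peg10 higher and Jade1 lower among 47 (4.3%, beside 1.67% of all genes), and Peg10 had 9 counts in 2 matPlag1KO embryos of plate A and none in WT. Of 28 IGF signalling and Igf2bp genes none was called, and Igf2bp1 had medians of 119.1 and 61.4 CPM.

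The immune gene H2-T23, which encodes the nonclassical class I molecule Qa-1, ran from 45.4 to 482.8 CPM (median 221.5) in WT and from 164.0 to 1195 CPM (median 617.5) in matPlag1KO (1.48 ± 0.34, adjusted p = 0.00782, 0.0254 with wells summed). It lies on the minus strand at mm9 chr17:36166922-36169646, within the span of A930015D03Rik on the plus strand (chr17:36131449-36175119), which also holds H2-T24. A930015D03Rik had nearly the same values at 8c, with medians of 276.6 and 652.3 CPM (1.42 ± 0.28, adjusted p = 0.00152). It is not given whether counting used strand, so counts of A930015D03Rik and of the genes within its span may be shared. At 2c the WT medians of A930015D03Rik and H2-T23 were apart (289.5 and 65.5 CPM). H2-T24 was far less abundant at 8c, with medians of 0.0 CPM in WT and 6.33 CPM in matPlag1KO (adjusted p = 0.018, 0.0641 with wells summed). The 3 genes lie at 1 locus, and their calls may not be independent. H2-T23 and H2-T24 were the only calls among 24 class I genes (8.33%, beside 1.67% of all genes). Pilra, an inhibitory receptor of myeloid cells, was higher in matPlag1KO too (1.75 ± 0.36, adjusted p = 0.00287, 0.0246 with wells summed).

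None of 88 cytosolic ribosomal proteins (median -0.04), 77 mitochondrial ribosomal proteins (-0.08), 47 proteasome genes (-0.18), 60 translation factors (-0.21) or 35 aminoacyl-tRNA synthetases (-0.14) was called. Of the members with at least 10 CPM, 41 of 53 translation factors (77.4%), 31 of 42 proteasome genes (73.8%) and 21 of 28 synthetases (75.0%) were lower, shares like those of the metabolic lists. Among abundant members, the elongation factor gene Eef1a1 had medians of 2787 CPM in WT and 2477 CPM in matPlag1KO, and the groups overlapped broadly. Respiratory chain genes gave no call among 81 (median -0.18, 58 of 79 abundant members lower). Of 92 abundant genes of ribosome biogenesis and Pol I and III 33 were lower (35.9%), and of 47 genes of RNA polymerase II and the general factors 15 (31.9%), beside 56.8% of all genes of that level. No RNA polymerase II or Mediator gene was called among 53 and 33 tested. These shares are descriptions, since members of a list vary together across the same embryos. Kdm5d, the single call among 56 histone methylation genes, is Y-linked and lost its call with the Xist term (0.26). Hat1 was the single call among 43 histone acetylation and bromodomain genes, and 22 DNA methylation genes and 12 histone variants had none.

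**Figure D4:**
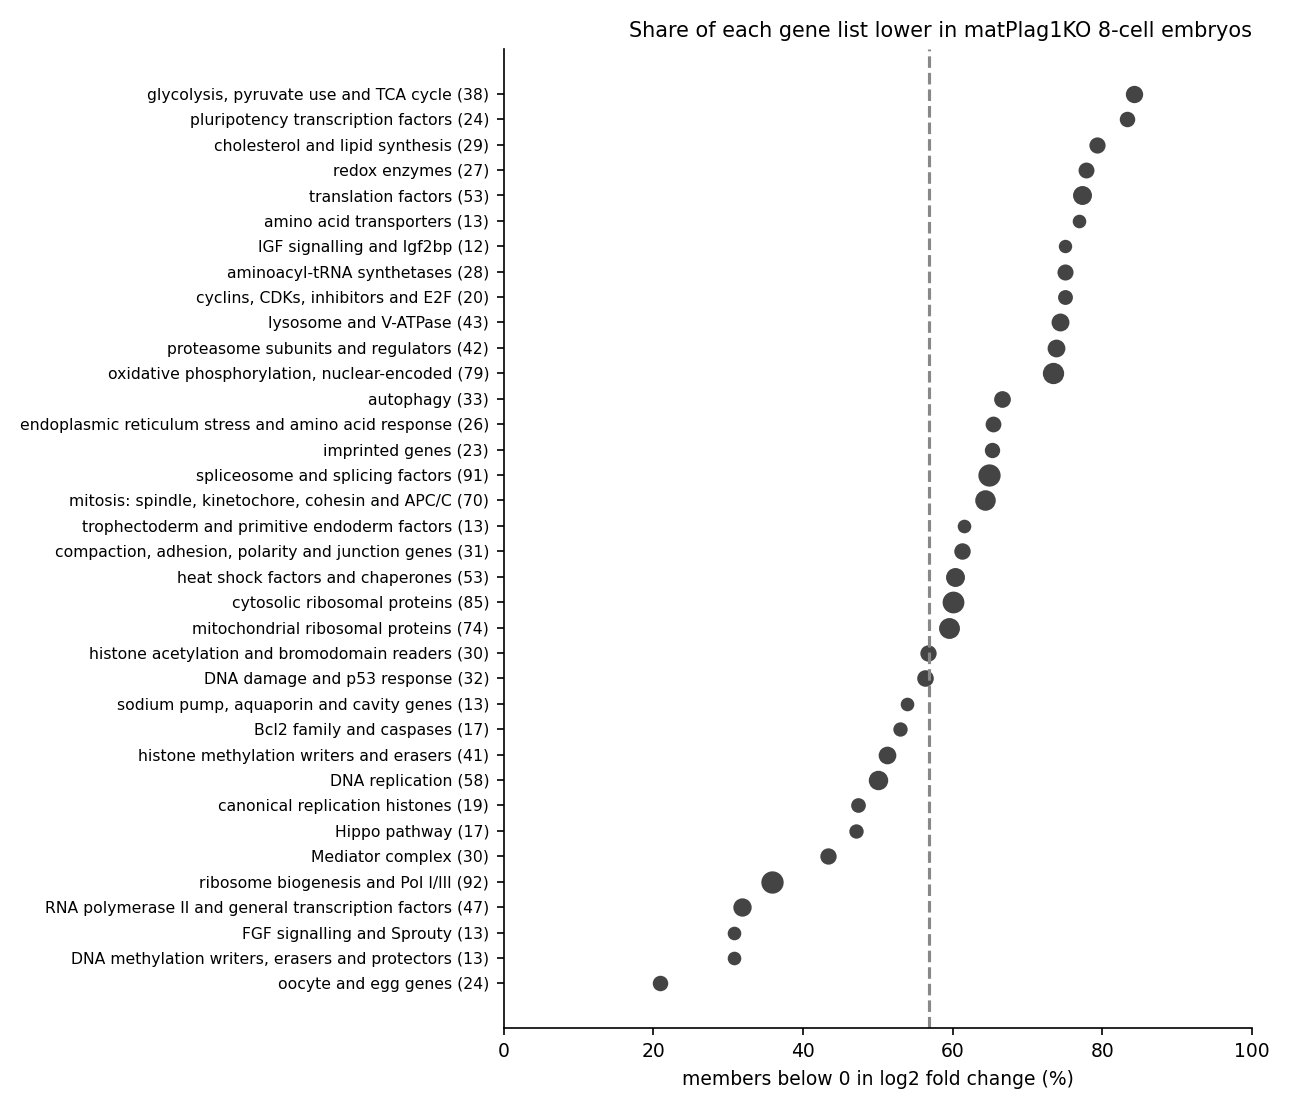
Share of members with a log2 fold change below 0 (horizontal axis, % of members with a mean of at least 10 CPM over the 8c embryos, their number in brackets), for the lists with at least 10 such members; larger points are larger lists and the dashed line is the 56.8% of all 6881 such genes. Glycolysis and the TCA cycle lie at 84.2% and oocyte and egg genes at 20.8%.

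The position of the embryos along the normal change from 2c to 8c was measured by a stage index. It is the mean log2(CPM + 1) of 500 genes that rise minus that of 500 genes that fall between the stages, and for each plate the genes were chosen in the other plate. With genes chosen in WT the index was 4.65 ± 0.30 (SD, n = 15) in WT and 3.97 ± 0.44 (n = 11) in matPlag1KO, so that the means were -0.68 apart (permutation test, two-sided, p = 4e-05). This was 7.66% of the distance of 8.91 between WT embryos at 2c and 8c. At 2c the mean index was -4.26 in WT and -4.32 in matPlag1KO (n = 11 each), a difference that was not tested. In oocytes it was -4.04 in WT (n = 16) and -3.85 in matPlag1KO (n = 14). The index therefore does not place oocytes before 2c embryos and describes the change from 2c to 8c only. The difference was -0.61 in plate A (exact p = 0.0152) and -0.78 in plate B (exact p = 0.00777), and 3 of the 11 matPlag1KO embryos lay within the WT range of 4.23 to 5.26. Averaged by well, all 6 matPlag1KO wells were below the 8 WT wells, at 3.67 to 4.24 and 4.28 to 5.23 (exact p = 0.000666). The rising genes were lower (5.82 ± 0.42 against 6.17 ± 0.26, p = 0.0157 in a permutation test) and the falling genes higher (1.85 ± 0.31 against 1.52 ± 0.37, p = 0.0274). In each genotype the mean of the rising genes was lowest in the shallowest library. It was 5.04 in the matPlag1KO embryo with 214053 counts and 5.51 in the WT embryo with 264386. The mean of the falling genes was also lowest in these libraries, at 1.365 and 1.036 in that order. The matPlag1KO libraries were the shallower ones (median 393914 against 564009 counts). The index was not computed at equal depth, so the part of depth in this difference was not tested.

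The size of this difference depended on the genotype in which the genes were chosen. With genes chosen on the mean of both genotypes, a choice added after the data were seen, it was -0.52 (permutation p = 0.00172). With genes chosen in matPlag1KO it was -0.24 (5.21 ± 0.43 in WT and 4.97 ± 0.45 in matPlag1KO, permutation p = 0.177). The wells that chose the genes in one plate recur in the other, so the plates are not independent. Genes that change from oocyte to 2c did not separate the genotypes (0.03, permutation p = 0.851).

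**Figure D5:**
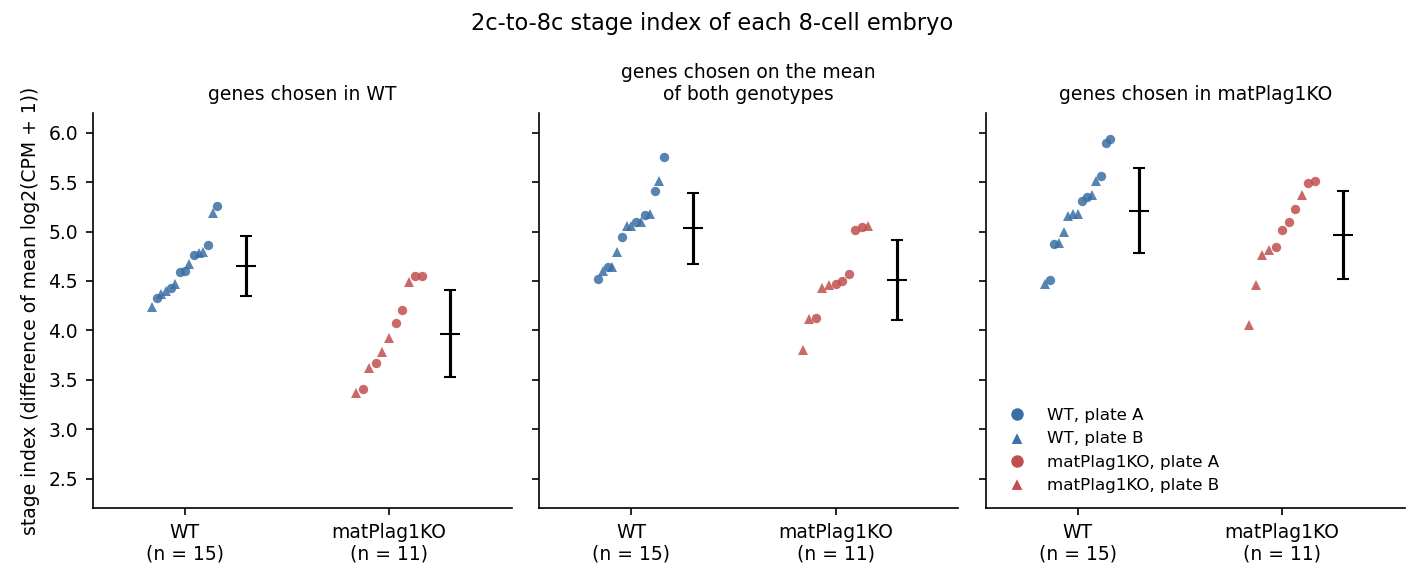
Stage index of each 8c embryo (vertical axis, difference of mean log2(CPM + 1)) with index genes chosen in WT, on the mean of both genotypes or in matPlag1KO; circles are plate A, triangles plate B, and bars give the mean ± SD. The means differ by -0.68, -0.52 and -0.24 from left to right.

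The called genes can also be set against the stages without reference to one genotype, by taking the mean of both at each stage. Of the genes called higher in matPlag1KO 117 of 192 (60.9%) were lower at 8c than at 2c, beside 51.1% of all genes tested. Of the genes called lower 49 of 83 (59.0%) were higher at 8c than at 2c, beside 48.3% of all genes.

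The amount of RNA per embryo did not differ beyond the spread between embryos. The log2 ratio of gene counts to spike-in counts was 5.52 ± 0.35 (SD, n = 15) in WT and 5.37 ± 0.48 (n = 11) in matPlag1KO, a difference of -0.15 (permutation p = 0.363). It was -0.31 in plate A (exact p = 0.161) and 0.03 in plate B (exact p = 0.906). Of 50 spike-in RNAs 0 were called between the genotypes (0.0%) in the quasi-likelihood test, 2 had an unadjusted p under 0.05, and the likelihood ratio test called 1.

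The genotype difference was also compared between stages. It differed between 8c and 2c for 373 genes (2.26%, 188 in the upward and 185 in the downward direction) and between 8c and oocytes for 95 genes (0.575%, 66 and 29), by the interaction terms of the same edgeR fit. With median-ratio scaling the first split was 142 and 230, and in plate B alone the second was 45 and 98. For comparison, 797 genes (4.83%) were called between genotypes at 2c and 128 (0.775%) in oocytes. Of the 275 genes called at 8c 6 were also called at 2c, 2 in the same and 4 in the opposite direction, and they were chosen for mention after their values were seen. Rbm3, a cold-inducible RNA-binding protein that is X-linked, was lower at both stages (-0.97 at 8c and -1.06 at 2c), and Rasgrp3 was higher at both (2.98 and 3.14). Aqp3 turned from higher at 2c (3.04, adjusted p = 0.0058) to lower at 8c, with an interaction of -4.67 (adjusted p = 0.000742 in edgeR). Its level at 2c was low, with medians of 0.0 CPM in WT and 9.24 CPM in matPlag1KO. Slc35a4 (1.79 at 2c and -2.13 at 8c) and the tubulin gene Tuba1c (1.18 and -1.15) turned in the same way, and Cacng8 in the opposite one from counts in few embryos. With wells summed neither Aqp3 nor Slc35a4 was called at 8c (adjusted p = 0.177 and 0.149 in edgeR). None of the 275 was called in oocytes.

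PLAG1 binds GGGGC or GAGGC followed by GGG at a distance of 6 to 8 bases, and promoters of called genes were searched for these letters on both strands. The RefSeq windows of GRCm38.p6 run from 250 bases before to 50 bases after each start, and 12355 of the 16511 tested genes matched by symbol. The pattern was present for 36.0% of them, for 34.6% of the genes called higher (46 of 133) and for 37.9% of those called lower (25 of 66), so both shares were close to the background. The pattern was found in 22.7% of all windows. The first matches in the windows of 4 named genes of each direction, those with the lowest adjusted p that held a match, are shown as examples, on the strand of the gene with the match in capitals, where a match on the other strand reads as its complement.
Slc34a2 (lower, chr5:53049129-53049155): gcgcgcGGGGCGCCACCGGGGcgcagg
Apoa1 (lower, chr9:46228479-46228504): cagccaCCCCCTGCTGCCCCcacctg
Prr12 (lower, chr7:45053455-45053482): gcttacCCCCCCCCCCCGCCTCccaggc
Akr1b8 (lower, chr6:34354090-34354115): ggagggGGGGCGGGGGCGGGaggggt
Cdk20 (higher, chr13:64432328-64432353): gccctgCCCCTCTCAGCCCCacgcac
Nanos2 (higher, chr7:18987358-18987383): ggaggaGGGGCAACCTGGGGaataac
Fgd4 (higher, chr16:16600125-16600150): gccggtCCCCCCCAAGCCTCttcggc
Apaf1 (higher, chr10:91082911-91082938): tgcggaGAGGCGCGTAGAGGGGgcgggg
A match describes the letters of the window and is not a binding site. Slc34a2, a sodium phosphate carrier, fell from a median of 124.6 to 38.1 CPM (-1.98 ± 0.41, adjusted p = 0.00248, 0.0574 with wells summed), and Apoa1, the main protein of high-density lipoprotein, from 6.79 to 0.0 CPM (-3.86 ± 0.83, adjusted p = 0.0066, 0.0538 with wells summed). With wells correlated the adjusted p was 0.0968 for Slc34a2 and 0.0275 for Apoa1.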

How the data were processed

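Single oocytes and embryos were lysed and reverse transcribed with barcoded template-switching oligonucleotides, and the 5′ ends were sequenced with molecular identifiers in 2 pools with spike-in RNA. The authors mapped the reads with TopHat to mm9 and counted them with HOMER on UCSC gene models. The deposited values are raw counts per gene, without normalization, for 24422 genes and 92 spike-in RNAs, and no column lacked a sample. The precision is that of 214053 to 696870 counts per used 8c embryo.

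Libraries were dropped when their median over detected genes (1 CPM or more in 5 or more libraries) was under 1 CPM, and 78 of 90 libraries were used. Genes that reached 1 CPM in 5 or more of these were tested in edgeR 4.0.16 (R 4.3.3, TMM, robust quasi-likelihood, 6 group means) with Benjamini-Hochberg adjustment, and limma 3.58.1 and DESeq2 1.42.0 served as alternatives. Values per embryo were compared by two-sided permutation tests (100000 resamples, exact under 10 embryos). log2 levels had 1 CPM added. In a simulation with independent libraries 89 of 100 genes changed 4-fold and 16 of 100 changed 2-fold were recovered among 16509, with 14 unchanged genes called. The changed genes had at least 20 CPM in WT 8c embryos, whereas the genes called higher had a median WT level of 0.0 CPM. The likeness of libraries that share a well was not simulated. These rates therefore do not cover genes of low level or the effect of the wells.

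The lists (43), the rule for named genes and the tests were chosen with earlier results of these data known. Named were Plag1, Plagl1 and Plagl2, the 12 highest and 12 lowest fold changes among called genes with a mean of at least 20 CPM in 1 of the 8c groups, the same direction in both plates and counts in most embryos of the higher group (0.5 or more), the 8 next lowest adjusted p, called list members, called genes within 10 Mb of Plag1, and for lists without a call their 2 most abundant members. This gave 69 called genes. X inactivation and Y-linked genes (8 tested) gave Kdm5d alone, 37 genes of the endoplasmic reticulum stress list Shmt2, 41 autophagy genes no call, and 10 cumulus and granulosa genes Sdc4.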

Additional observations from a re-analysis of the deposited data

Results flagged for a closer look

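WT replicate 8 (plate B, well E1) stood apart from the other 7 WT 8c embryos of its plate by Dixon's criterion, with 264386 gene counts and a log2 ratio of gene to spike-in counts of 4.642. It is a single embryo with both low values, and 14 sets of values were examined, of which chance marks about 1 in 20. Without it 279 genes were called.

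The genotype difference at 8c differed from that at 2c or in oocytes (MII) for the genes below, by the interaction terms of the edgeR fit at an adjusted p under 0.05. Values are log2 differences, 8c minus the other stage, and a positive value is a genotype difference further toward matPlag1KO at 8c.

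Plag1 had the largest opposite values, -5.663 against 2c and 5.574 against MII. Among genes that were lower at 8c, Perp had -4.45 against 2c and -4.481 against MII, Ly6e -4.773, Aqp3 -4.665, Actg1 -4.173, Prr12 -4.006 and Slc35a4 -3.923 against 2c. Smaller differences of that direction against 2c were those of 1810030O07Rik at -3.594, Gapdh at -2.972, Nfe2l2 at -2.766, E2f4 at -2.711, Shmt2 at -2.258, Slc34a2 at -2.067, Hspe1 at -1.774 and Prdx2 at -1.579. Ubqln1 had -2.29 against 2c and -2.255 against MII, and the kinase gene Aurka had -1.772 against MII.

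Among genes higher at 8c, Hist1h4a had 4.959 against 2c and 5.179 against MII, and 1700065O20Rik 4.71 against 2c. Cdk20 had 3.205 and 4.038, Nanos2 2.368 and 3.45, Smarca2 2.118 and 2.551, Klf17 1.967 and 2.264, A930015D03Rik 2.118 and 1.979, and Lsm1 1.495 and 1.588, against 2c and MII in that order. Against 2c alone Fgd4 had 3.808, Tdpoz5 2.83, Gm4850 2.456, Apaf1 2.389, Trp53bp1 1.867 and Intu 1.663. Against MII alone Spry4 had 3.367, Tiam1 1.776 and Tmco3 1.673. Spry4, Cdk20, Fgd4 and Nanos2 rest on the wells named in the report, and the part of the wells in these differences was not tested.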

How the results depend on the processing

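The 275 calls at 8c (192 higher, 83 lower) were recomputed under other settings. The count was 108 with spike-in scaling (91 higher, 17 lower), 181 with a stricter filter (1 CPM in 0.5 of the 8c libraries), 116 with the 8c libraries thinned to one depth and 63 at an adjusted p under 0.01. It was 4 in plate A alone and 45 in plate B alone. Among settings added after the data were seen it was 177 with Xist detection as a term, 74 with the libraries of a well summed and 34 in limma-voom with libraries of a well treated as correlated. The split was 218 higher and 52 lower in DESeq2 and 208 and 143 in a fit of 8c libraries alone. Leaving out an embryo gave 169 to 289 calls, with 173 without matPlag1KO replicate 4, 181 without replicate 13, 182 without replicate 12 and 182 without WT replicate 6. The causes were not tested. Of the genes whose difference changed between 8c and 2c there were 0 in plate A alone, 154 in plate B alone and 69 at an adjusted p under 0.01, and between 8c and MII 16, 143 and 34. The stage index differed by -0.24 with genes chosen in matPlag1KO and by 0.0275 with genes that change from MII to 2c. The likelihood ratio test called 1 spike-in RNA. The median of canonical histones was -0.19 under the stricter filter. No paired analysis was possible because the genotypes share no well at 8c and the labels tie no WT embryo to a matPlag1KO embryo. Depth limits genes near 1 CPM, which is less than 1 count in the shallowest embryo.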
